A study of Canis lupus familiaris with 10 samples.

Results

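miR-150 and miR-342 are 2 of the 320 miRNAs whose reads were counted in canine lymph nodes, and they were taken by their names in the deposited table, cfa-miR-150 and cfa-miR-342, each of which is a single entry without an arm. Small RNA was sequenced from fresh-frozen nodes of 6 dogs with diffuse large B-cell lymphoma (DLBCL1 to DLBCL6) and of 4 dogs without lymphoma (Healthy2 to Healthy5), and each dog gave one library. The DLBCL nodes were peripheral nodes biopsied under anesthesia from pet dogs of both sexes and several breeds, some of them diagnosed with lymphoma earlier, whose ages are not given in the sources used here. The healthy nodes came from purpose-bred female hound crosses under a year old, taken at euthanasia. Diagnosis, origin and way of sampling therefore cannot be told apart between the groups, age was not compared, and males were present in the DLBCL group alone. A lymph node holds many kinds of cells, and in such bulk samples fewer cells of a type and less miRNA per cell also cannot be told apart.

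A miRNA pairs with messenger RNAs mainly through its seed, a short stretch near its 5′ end, and lowers the amount of protein made from them. miR-150 is scarce in lymphoid progenitors, accumulates as B and T cells mature, and falls again when resting lymphocytes are activated. Its best known target is MYB, a transcription factor of blood progenitors. miR-342 is made from an intron of EVL, a gene for an actin-binding protein, and is found in lymphoid and other blood cells. In RefSeq's annotation of the dog assembly UU_Cfam_GSD_1.0, EVL spans the miR-342 gene, while 0 genes span the miR-150 gene. Each has 1 gene there. Mature sequences were not used here.

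Between 10686441 and 25784861 reads were counted on miRNAs per DLBCL library and between 30432969 and 34709421 per healthy library. Expression is given as CPM, the read count per 1000000 reads of a library size adjusted by TMM, a factor that edgeR sets so that most miRNAs have equal levels between libraries. TMM factors ranged from 0.698 to 2.03 in DLBCL and from 0.507 to 1.11 in healthy nodes, so values per total miRNA reads (TPM) are given beside CPM where the scale matters. miR-142 is made by nearly all cells of the blood lineages, and miR-155 rises in activated lymphocytes. miR-142 had at least 3381.5 CPM and miR-155 at least 3264 CPM in every library, so that leukocyte miRNAs were present in all 10. In the study's read statistics the percentage of bases at Q30 was higher in DLBCL1, DLBCL2, DLBCL3 and DLBCL5 than in the other 6 libraries. Values within the lower Q30 group compare DLBCL4 and DLBCL6 with the 4 healthy libraries.

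miR-150 was lower in DLBCL, and every DLBCL library lay below every healthy library. In the healthy nodes miR-150 measured 4154.5 CPM in Healthy2, 8899 in Healthy3, 15205 in Healthy4 and 3407 in Healthy5. The DLBCL nodes ran from 553 CPM in DLBCL2 through a median of 806 to 1736 CPM in DLBCL3. The lowest healthy library thus held 1.96 times the CPM of the highest DLBCL library. In CPM, DLBCL3 and DLBCL5 (1503 CPM) stood above the other 4 DLBCL libraries, which lay between 553 and 843 CPM. This order changed with the scale, and in TPM DLBCL6 was highest (1562), followed by DLBCL3 (1430.1), DLBCL4 (1141.5) and DLBCL5 (1049). The DLBCL mean was 1009 ± 488 CPM (SD, n = 6) and the healthy mean 7916 ± 5434 CPM (SD, n = 4), which is 7.84-fold more. In edgeR's quasi-likelihood test the log2 fold change was -2.97 (standard error 0.50, 95% interval -4.05 to -1.89), with a Benjamini-Hochberg adjusted p of 0.00687 over the 247 miRNAs tested. Leaving out Healthy4, the library with the most miR-150, gave -2.45 with an adjusted p of 0.0551 from edgeR, just outside the threshold, and leaving out any other library kept the call. Within the lower Q30 group the log2 fold change was -3.49 (adjusted p = 0.013 from edgeR).

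Following the thresholds of the study, a miRNA was called differentially expressed (DEM) where its fold change exceeded 2 with an adjusted p under 0.05. Of the 247 miRNAs tested, 14 were DEMs (5.67%), and these were split into 9 higher (3.64%) and 5 lower (2.02%) in DLBCL. miR-150 had the largest fall of the 5. The number of DEMs itself varied widely with the libraries used and was 1 without Healthy4, 2 without Healthy2 and 3 without DLBCL1. Its p-value was the second smallest of all miRNAs tested, and its log2 fold change ranked 3 among the most negative. Groups without overlap, with DLBCL below, were found for 15 miRNAs in CPM (6.07%) and for 2 in TPM (0.81%), and groups with DLBCL above for 17 (6.88%) and 34 (13.8%). The 2 in TPM were miR-150 and miR-148a, the second of which is named here after its values were seen. miR-150 averaged 1151 ± 297 TPM (SD, n = 6) in the lymphomas and 5819 ± 3457 TPM (SD, n = 4) in the healthy group, or 5.06-fold more.

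miR-342 measured less in DLBCL than in healthy nodes, but the difference did not pass the test. The healthy nodes held 96.0 CPM in Healthy2, 178 in Healthy3, 150.35 in Healthy4 and 95.6 in Healthy5. In the DLBCL nodes miR-342 measured 62.6 CPM at the lowest, in DLBCL2, with a median of 65.1, and 129 CPM at the highest, in DLBCL1. All DLBCL libraries except DLBCL1 lay between 62.6 and 73.7 CPM, below every healthy library, while DLBCL1 lay within the healthy range. In TPM DLBCL1 (144) had DLBCL6 and DLBCL4 close beside it, each at 129 TPM. The DLBCL mean was 76.4 ± 25.9 CPM (SD, n = 6), against a healthy mean of 130 ± 41.0 CPM (SD, n = 4), which is 1.70-fold more. The same edgeR fit gave miR-342 a log2 fold change of -0.77 with a standard error of 0.39 and an adjusted p of 0.223. Its 95% interval, from -1.61 to 0.08, takes in no change as well as a fall to 0.328 of the healthy level, so a fall of more than 2-fold was not excluded at this number of dogs. For comparison, 66 of the 247 miRNAs (26.7%) had an unadjusted p under 0.05, and miR-342 was not among them. A log2 fold change below 0 was found for 110 of them (44.5%). Without DLBCL1 the DLBCL mean was 66.0 ± 4.50 CPM and the log2 fold change was -0.99 (adjusted p = 0.172 from edgeR). Within the lower Q30 group it was -0.93 (adjusted p = 0.206 from edgeR). With total miRNA reads as the scale, the difference shrank to a log2 fold change of -0.05, and miR-342 averaged 98.1 ± 42.0 TPM (SD, n = 6) in the lymphomas against 102 ± 44.7 TPM (SD, n = 4) in the healthy group. The median over all miRNAs was 0.82 on that scale. miR-148a alone averaged 312830 TPM in the lymphomas and 609530 TPM in the healthy group. With miR-148a left out of the total, miR-342 was at -0.86 (adjusted p = 0.269 from edgeR).

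**Figure D1:**
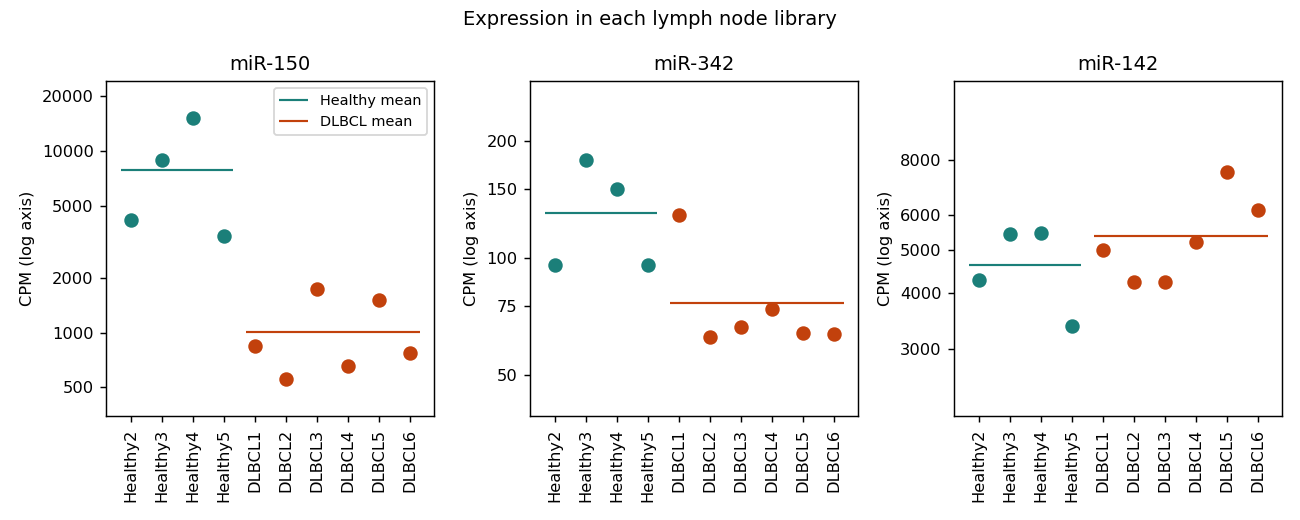
CPM of miR-150, miR-342 and miR-142 in each of the 10 libraries, on log axes that differ between the panels; a point is 1 library and a line is the group mean. All 6 DLBCL points lie below all 4 healthy points for miR-150, all but DLBCL1 do so for miR-342, and the groups overlap for miR-142.

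miR-150 was the more abundant of the pair in every library. By read count it ranked between 9 and 23 of the 320 miRNAs in the healthy nodes and between 42 and 59 in the DLBCL nodes. The ranks come from the same counts as the CPM and are given as a description. miR-342 ranked between 82 and 96 in healthy nodes and between 92 and 107 in DLBCL, with DLBCL1, at 92, inside the healthy range. The share of all miRNA reads taken by miR-150 ran from 0.0778% in DLBCL2 (95% Wilson interval 0.0765 to 0.0791%) to 0.951% in Healthy4 (0.948 to 0.955%). For miR-342 the shares ran from 0.00446% in DLBCL5 (0.00419 to 0.00475%), where 981 reads were counted, to 0.0157% in Healthy3 (0.0153 to 0.0162%). PCR copies are not independent molecules, so these intervals reflect counting error alone. They are narrow against the spread between dogs.

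The spread between dogs depended on the scale as well as on the miRNA. Among the healthy nodes miR-150 varied 4.46-fold between the lowest and the highest library, with a SD of 0.999 on the log2 CPM scale, larger than that of 152 of the 161 miRNAs with a mean of at least 10 CPM. In TPM that range was 4.52-fold, and over the 7 scalings listed further on it ran from 2.87-fold to 4.84-fold. The healthy nodes varied 1.86-fold in miR-342 CPM and 3.24-fold in TPM. In DLBCL, CPM varied more in miR-150 (3.14-fold) than in miR-342 (2.05-fold), and TPM the other way round (2.01-fold and 3.22-fold). The SD of miR-342 in DLBCL was 0.403 on the log2 scale, against a median of 0.953 over the 161 miRNAs, and only 8 of them had a smaller one. For miR-150 it was 0.664, with 33 smaller. In the healthy nodes the median over the same miRNAs was 0.475, and miR-342 lay close to it at 0.456. On the log2(TPM + 1) scale the DLBCL order was again reversed, with a SD of 0.375 for miR-150 (2 miRNAs smaller) and 0.703 for miR-342 (41 smaller), against a median of 1.10.

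A ratio of read counts within a library needs no scaling between libraries, and 3 such ratios were compared. There were 35.7 to 101 reads of miR-150 per read of miR-342 in the healthy libraries and 6.55 to 26.2 in the DLBCL libraries, without overlap. DLBCL3 and DLBCL5 had the highest ratios of miR-150 to miR-342 among the DLBCL nodes, 26.2 and 23.5, and DLBCL1 the lowest. The log2 ratio averaged 3.65 ± 0.82 (SD, n = 6) for DLBCL and 5.72 ± 0.66 (SD, n = 4) for the healthy group. The difference of the means was -2.08, a 4.22-fold lower ratio (p = 0.00952 in a two-sided exact permutation test with 210 arrangements of the group labels, and 0.0143 adjusted over the 3 ratios). miR-150 was therefore lower in DLBCL by more than miR-342 was, whatever the scaling. The test kept p under 0.05 with each library left out in turn.

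miR-142 was used as a reference from cells of the blood lineages in the same library. It averaged 5395 ± 1262 CPM (SD, n = 6) for DLBCL and 4640.0 ± 1005 CPM (SD, n = 4) for the healthy group, and its log2 fold change was 0.22 (95% interval -0.45 to 0.88, adjusted p = 0.697 from edgeR) in this scale and between -0.27 and 0.98 under the 7 scalings compared further on. The healthy libraries held between 0.971 reads of miR-150 per read of miR-142, in Healthy2, and 2.78, in Healthy4. In DLBCL they ranged from 0.125 in DLBCL6 to 0.41 in DLBCL3. The mean log2 ratio was lower by 3.06 in DLBCL, an 8.33-fold difference (exact permutation test, two-sided, p = 0.00476, which is the smallest value possible with groups of 6 and 4, and 0.0143 adjusted over the 3 ratios).

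Per 1000 reads of miR-142, the DLBCL libraries held 8.50 reads of miR-342 in DLBCL5, 10.3 in DLBCL6, 14.1 in DLBCL4, 14.8 in DLBCL2, 15.6 in DLBCL3 and 25.6 in DLBCL1. The healthy libraries held 22.4 in Healthy2, 27.5 in Healthy4, 28.3 in Healthy5 and 32.7 in Healthy3. The groups overlapped through DLBCL1 alone. The mean log2 ratio was lower by 0.98 in DLBCL, a 1.97-fold difference, with p = 0.0238 in the two-sided exact permutation test and the same value after adjustment over the 3 ratios. This call was lost (p = 0.0595) without Healthy3, without Healthy4 or without Healthy5, and the comparison of medians in place of means gave p = 0.0857 in the exact test. In the lower Q30 group the 3 log2 ratios differed by -2.35, -3.54 and -1.19, where 2 libraries against 4 cannot give a p below 0.0667.

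**Figure D2:**
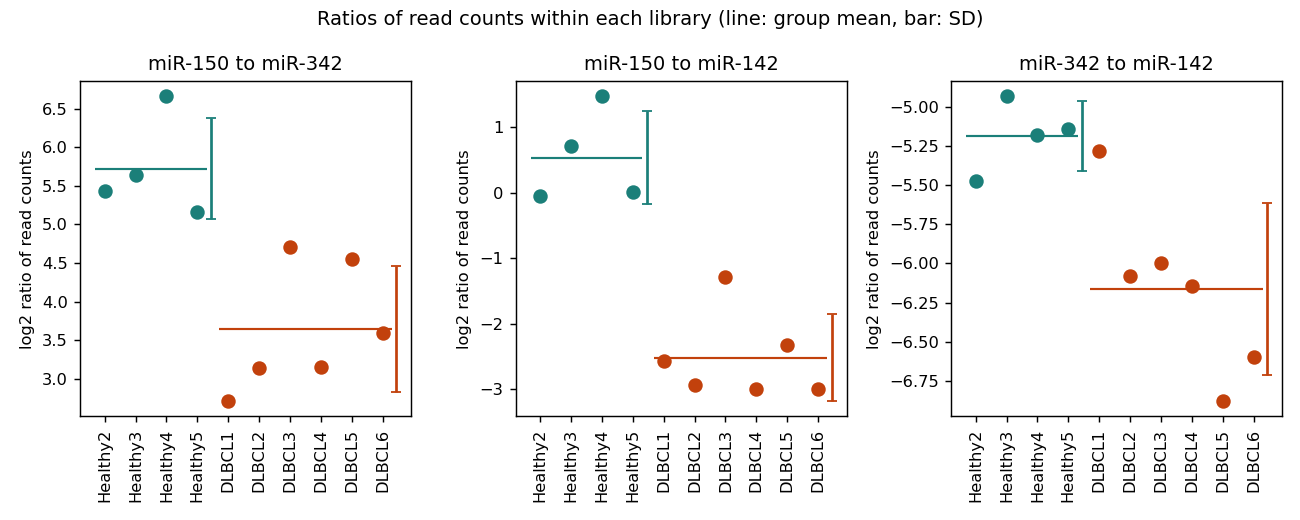
Log2 ratios of read counts within each library for miR-150 to miR-342, miR-150 to miR-142 and miR-342 to miR-142; points are libraries, lines are group means and bars are SDs (n = 4 healthy, n = 6 DLBCL). The first and second panels show groups without overlap, and in the third DLBCL1 lies inside the healthy range.

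Across all pairs, the ratio of miR-150 to another miRNA tested was lower in every DLBCL library than in every healthy library for 104 of its 246 partners, or 42.3%, with 0.5 read added to each count. For miR-342 this held for 42 partners, or 17.1%, and the median over all miRNAs tested was 7 partners. Only 1 miRNA had more such partners than miR-150, while 26 had more than miR-342. The same libraries and partners enter all these counts, which are given as a description.

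The size of the fold change depended on the scale for both miRNAs. Under 7 scalings (TMM, DESeq2's size factors, total miRNA reads with and without miR-148a, mapped small RNA reads, miR-142, and the study's reference miRNAs miR-361, miR-101 and miR-29c) the median over all miRNAs of the log2 fold change moved between -0.32 and 0.82. The log2 fold change of miR-150 ran from -3.30 to -2.34, and that of miR-342 from -1.19 to -0.05. Taken relative to the median of the same fit, miR-150 lay between -3.18 and -2.96 and miR-342 between -0.94 and -0.82. A change of scale shifts all miRNAs nearly alike, so these distances vary little by construction and are given as a description. miR-150 had no overlap between the groups under any of the 7 scalings and was a DEM under each, with adjusted p-values from edgeR of 0.000524 to 0.012. For miR-342 the groups overlapped under all 7, with between 1 and 5 of the 6 DLBCL libraries below the healthy ones, and its adjusted p-values from edgeR ran from 0.113 to 0.958. The study chose its reference miRNAs to normalize quantitative RT-PCR, not sequencing. In the reads, miR-361 and miR-101 had log2 fold changes of -0.24 and -0.03, while miR-29c was at 1.92 (adjusted p = 0.109 from edgeR).

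**Figure D3:**
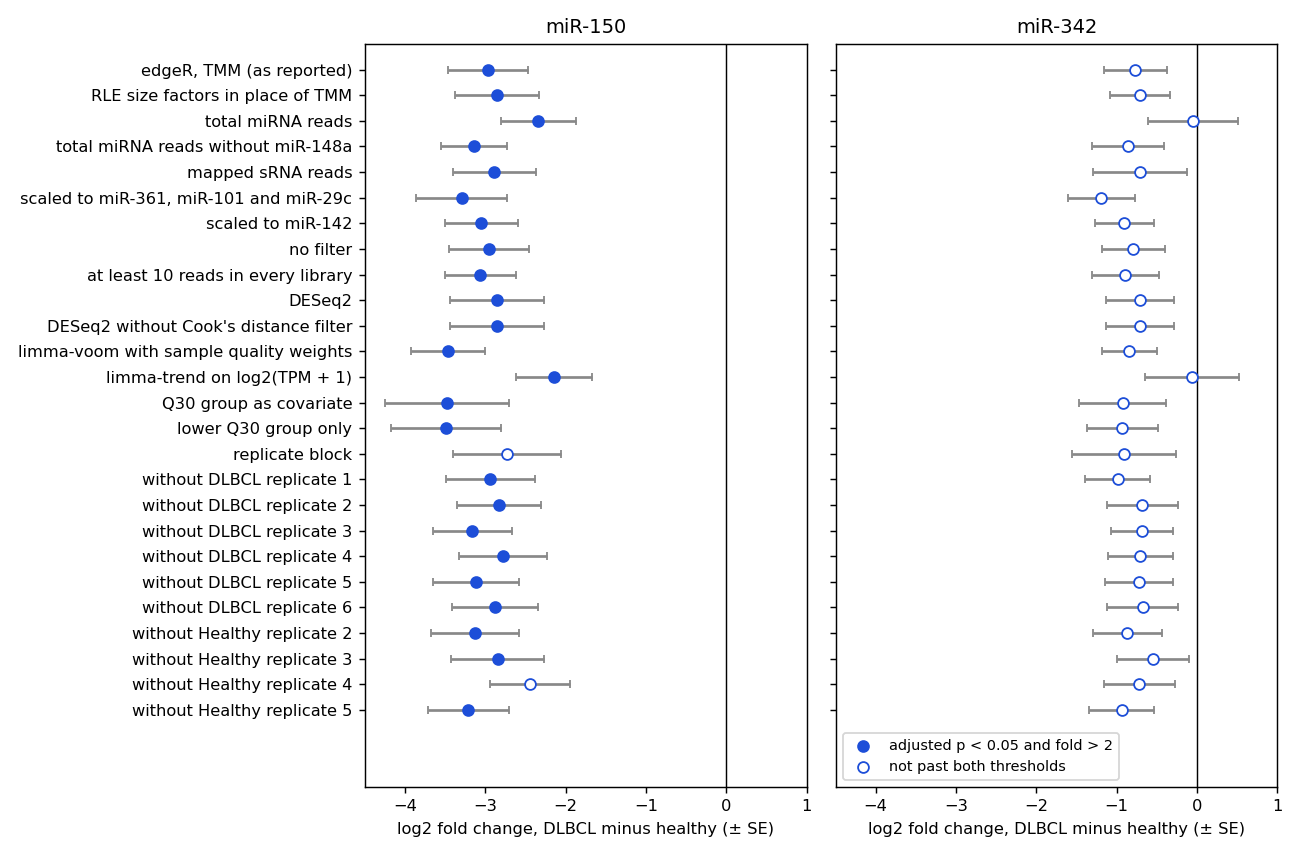
Log2 fold change between DLBCL and healthy nodes, with its standard error, for miR-150 and miR-342 under the reported edgeR fit and each alternative; filled points pass both DEM thresholds. miR-150 stays below -2 throughout and is open in the fit with a replicate block and in that without Healthy4, while miR-342 lies between -1.19 and -0.05 and is open throughout.

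No relation between the pair was detectable over the DLBCL dogs, and so few dogs leave a wide range of relations possible. Over the 6 DLBCL libraries Pearson's r of log2 CPM was -0.12 (exact permutation of the 720 pairings, p = 0.86) and Spearman's rho was 0.37 (exact permutation p = 0.497). Without DLBCL3 and DLBCL5, which were left out for being farthest from the median of miR-150 in CPM, r was 0.69 over 4 libraries, too few for a test. DLBCL1 had the most miR-342 among the DLBCL nodes under 6 of the 7 scalings, and DLBCL6 under that by mapped small RNA reads. DLBCL3 had the most miR-150 under 5 of them and DLBCL6 under the other 2. Among the healthy nodes, which are too few for a correlation, Healthy4 had the most miR-150 and Healthy3 the most miR-342 under all 7 scalings. The lowest healthy library for both miRNAs was Healthy5 in CPM and Healthy2 in TPM.

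**Figure D4:**
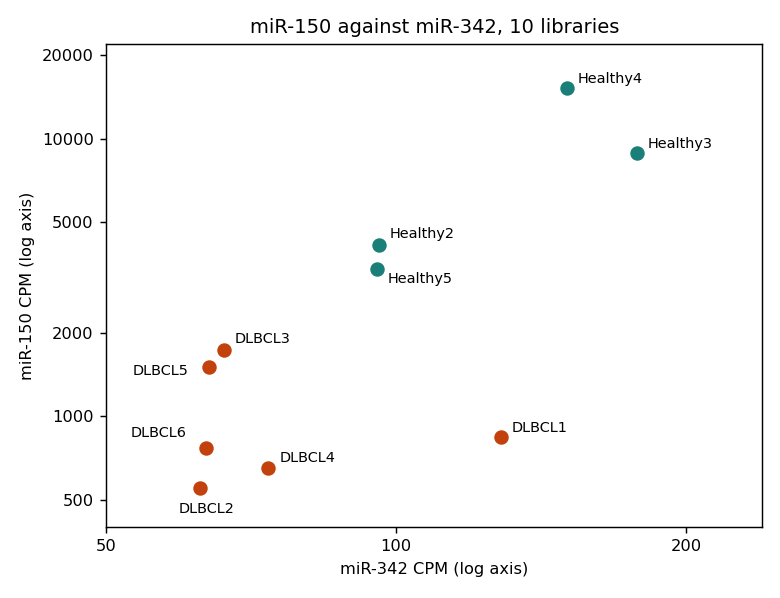
miR-150 CPM against miR-342 CPM in the 10 libraries, on log axes. The healthy libraries lie above every DLBCL library on the miR-150 axis, and DLBCL1 stands apart from the other DLBCL libraries on the miR-342 axis at 129 CPM, which it does not in TPM.

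Likeness to other miRNAs was measured as Pearson's r between deviations of log2 CPM from the own group's mean over the 10 libraries, among 160 candidates with a mean of at least 10 CPM. The libraries share their scaling factors, so the values are descriptions. miR-150 was most like miR-25 (r = 0.87), a member of the miR-106b/25 cluster, followed by miR-7180 (0.82) and miR-320 (0.81). None of these was lower in DLBCL by the test, with log2 fold changes of 1.198, 0.95 and -0.25 and adjusted p-values from edgeR of 0.141, 0.326 and 0.769. For miR-342 the nearest were miR-155 (r = 0.71), miR-30c (0.61) and let-7c (0.60), with log2 fold changes of 0.44, 0.13 and -0.35. Between miR-150 and miR-342 themselves r was 0.37, which placed miR-342 at rank 54 for miR-150 and miR-150 at rank 22 for miR-342.

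Lists of other miRNAs give the setting. Of 9 other miRNAs of lymphoid cells and leukocytes, 0 were DEMs in the upward and 1 in the downward direction, with a median log2 fold change of -0.36 against 0.13 over all miRNAs tested (and of 0.18 against 0.82 when scaled to total miRNA reads). The DEM was miR-146a, a feedback inhibitor of NF-kB signalling, which averaged 3660 ± 1493 CPM (SD, n = 6) for DLBCL and 10051 ± 1122 CPM (SD, n = 4) for the healthy group. Its log2 fold change was -1.46 (adjusted p = 0.0397 from edgeR), and it was a DEM under 5 of the 7 scalings and in 4 of the 10 fits with one library left out. miR-155, the most abundant of this list by its mean in DLBCL, had a log2 fold change of 0.44 (adjusted p = 0.568 from edgeR). miR-181a, which tunes signalling from the antigen receptor, was at -1.49 without passing the test (adjusted p = 0.114 from edgeR). The other listed members of the miR-181 family, miR-181b, miR-181c and miR-181d, were at -0.33, -1.25 and -0.42. miR-146b was at 0.95, and none of these was a DEM.

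The transcription factor MYC is known to lower miR-150 and many other miRNAs and to raise the miR-17/92 cluster. MYC itself was not measured, and its part in the level of miR-150 was not tested. Of 21 other miRNAs known to be lowered by MYC, 12 had a log2 fold change below 0 and 9 above. Over all 247 miRNAs tested, 110 (44.5%) were below 0. The median of the 21 was -0.09, against 0.13 over all miRNAs tested. Over the 7 scalings it ran from -0.55 to 0.64, while the median over all miRNAs ran from -0.32 to 0.82. The DEMs among the 21 were miR-146a, which also stands in the leukocyte list, and miR-34a, a target of p53. Of all miRNAs tested, 5.67% were DEMs. miR-34a was higher in DLBCL by 4.0 on the log2 scale and a DEM under 2 of the 7 scalings. The most abundant of the 21, let-7f, was at -0.12 (adjusted p = 0.874 from edgeR). All 6 members of miR-17/92 had a positive log2 fold change, with a median of 1.80 (1.37 to 2.54 over the 7 scalings, all positive under each), and 0 of them were DEMs in this fit. Its most abundant member, miR-92a, was at 1.81 (adjusted p = 0.0565 from edgeR). In absolute size, the log2 fold change of miR-150 exceeded that of every member of these 3 lists except miR-34a.

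Among the markers of other cell types, only red blood cell miRNAs were DEMs in the reported edgeR fit. The part of such cells in the values of miR-150 and miR-342 was not tested. Summed over miR-451, miR-144 and miR-486, red blood cell miRNAs ran from 5171 to 35567 CPM in DLBCL and from 808 to 1071 CPM in healthy nodes, and 2 of the 3 (miR-451 and miR-486) were DEMs, both higher. miR-451, the most abundant, was a DEM under all 7 scalings and in all 10 fits with one library left out, and miR-486 under 4 of the 7 and in 5 of the 10. Of 9 miRNAs of epithelium and exocrine pancreas, 5 passed the filter on low counts and 0 were DEMs, with a median log2 fold change of -2.57. miR-216a, miR-216b and miR-217 were at -2.57, -2.84 and -3.16, while miR-200c and miR-141 were at 1.07 and -0.18. When scaled to the study's reference miRNAs 2 of the 5 were DEMs, both lower. The sum of the 9 ran from 45.8 to 676 CPM in DLBCL and from 931 to 1961 CPM in healthy nodes. The largest part of that sum in healthy nodes was miR-216b, at 1051 ± 395 CPM (SD, n = 4), while miR-200b was at 0 reads in 9 of the 10 libraries and miR-429 in 6. The 8 listed miRNAs of stroma and vessels summed to 54390 to 252290 CPM in DLBCL and 84427 to 146470 CPM in healthy nodes, with 0 DEMs and the highest level for miR-99a. Their median log2 fold change was -0.52 against 0.13 over all miRNAs tested, and 0.30 against 0.82 when scaled to total miRNA reads. miR-223, the marker of myeloid cells, was at 3.95 to 88.3 CPM in DLBCL and 16.9 to 38.6 CPM in healthy nodes, and its log2 fold change, 0.09, ran from -0.48 to 0.93 over the scalings. The 4 listed miRNAs of skeletal muscle, with miR-1 as the most abundant, summed to 9.42 to 360 CPM in DLBCL and 16.3 to 76.5 CPM in healthy nodes, and 0 of the 3 tested were DEMs.

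**Figure D5:**
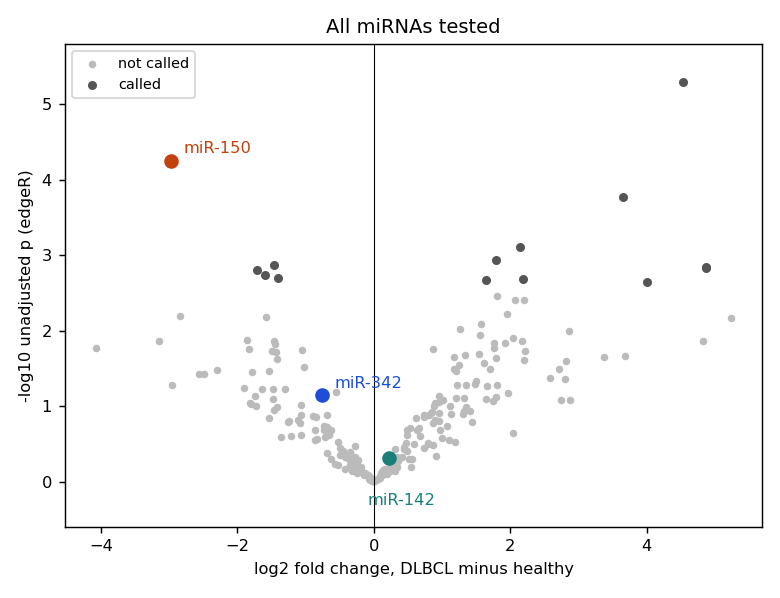
Log2 fold change between DLBCL and healthy nodes against -log10 of the unadjusted edgeR p for the 247 miRNAs tested, with the 14 DEMs in dark grey and 3 miRNAs named. miR-150 lies at -2.97 and apart from the other DEMs that were lower in DLBCL, miR-342 at -0.77 and miR-142 at 0.22.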

How the data were processed

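The authors cleaned and mapped the reads with Bowtie 0.12.9, set aside those from repeats and from other kinds of small RNA, and counted known miRNAs of miRBase with miRDeep2. They deposited read counts without normalization for 320 miRNAs per library. The authors also deposited TPM values, which equal counts per 1000000 of the listed miRNA reads (largest difference 4.55e-05). The submitters' processing notes name the genome build CanFam3.1. Mapping and counting were not repeated. In small RNA libraries the level of one miRNA against another also reflects how well each is ligated and amplified.

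Counts were tested with edgeR 4.0.16 in R 4.3.3 (TMM, default filter by group, quasi-likelihood test, Benjamini-Hochberg adjustment over 247 miRNAs), with a prior count of 2 for log2 CPM. For edgeR, the standard error is the absolute log2 fold change divided by the square root of the test's F statistic. Intervals use it with a t quantile. Ratios and correlations were tested by exact permutation in Python 3.11.15 (numpy 2.4.6, scipy 1.17.1, pandas 2.3.3, and matplotlib 3.10.9 for plots). Groups and replicate numbers come from the sample titles. No pair of libraries of a group agreed within sampling noise (chi-squared per degree of freedom of at least 2115). The tests of counts were also run on simulated counts with 40 miRNAs changed or none changed, and no result given here rests on those runs. Alternatives were other scalings, no filter or at least 10 reads in every library, DESeq2 1.42.0, limma 3.58.1 (voom with quality weights, and trend on log2 of TPM with 1 added), the Q30 group, a replicate block and leaving out each library. Leaving out DESeq2's filter on Cook's distance, the ratios to all partners and the lists and the within-group spread under each scaling were added after seeing the data.

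The miRNAs named are miR-150 and miR-342, miR-142, the study's reference miRNAs, the DEMs and the most abundant member of each list (leukocytes, MYC-lowered, miR-17/92, red blood cells, myeloid cells, stroma and vessels, epithelium and exocrine pancreas, skeletal muscle), and the 3 miRNAs most like each. miR-146b, miR-181a to miR-181d, the tested miRNAs of epithelium and exocrine pancreas, and markers named for their level were picked with their values known. The members and lists were chosen with earlier results of these data known.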

Additional observations from a re-analysis of the deposited data

Results flagged for a closer look

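The level of miR-342 in DLBCL1, 129 CPM, stood apart from the other 5 DLBCL libraries, which lay between 62.6 and 73.7 CPM: its gap to the nearest of them was 0.832 of the whole range of the group, above Dixon's 95% critical value of 0.625 for 6 samples. It was the 1 value singled out among 10 sets of values checked (miR-150 and miR-342 in CPM and the 3 log2 ratios, in each group), and chance singles out about 1 in 20 such sets. The gap depends on the scale. It was 0.148 of the range in TPM, where DLBCL6 and DLBCL4 lay beside DLBCL1, and past the critical value under 2 of 7 scalings (TMM and the study's reference miRNAs). In the ratio of miR-342 to miR-142 the same library was again the highest of the DLBCL group, at -5.29 on the log2 scale, but did not pass that critical value.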

How the results depend on the processing

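The fold change of miR-150 was below 0 in all 25 alternative fits, from -3.49 to -2.14, and its call was lost in 2 of them. With a replicate block the log2 fold change was -2.73 (adjusted p = 0.0709 from edgeR) and 1 miRNA was a DEM. Same-numbered libraries come from different dogs, and their deviations from the group means correlated at 0.264, -0.009, -0.302 and -0.332 for numbers 2 to 5, so that the numbers do not pair the samples. Without one library, miR-150 ran from -3.21 to -2.45, the latter without Healthy4. miR-342 was below 0 and not a DEM in all 25, from -1.19 to -0.05 over the alternatives and from -0.99 to -0.55 with one library left out. For the ratios, leaving out one library gave -2.29 to -1.77 (miR-150 to miR-342), -3.31 to -2.75 (miR-150 to miR-142) and -1.16 to -0.84 (miR-342 to miR-142), the third losing its call in 3 of 10. The lower Q30 group gave -2.35, -3.54 and -1.19, where the smallest p allowed is 0.0667, and medians gave -0.95 for miR-342 to miR-142. The correlation within DLBCL ran from -0.34 to 0.0125 with one library left out and was 0.10 when scaled to miR-142. The number of DEMs, 14, was 8 with DESeq2's size factors, 23 with total miRNA reads (22 higher), 7 with mapped small RNA reads, 6 when scaled to miR-142, 45 with DESeq2, 46 with limma-voom, 46 within the lower Q30 group, 7 with Q30 group added as a covariate and 49 where DESeq2's filter on Cook's distance was left out, which was chosen after seeing the data. With one library left out it ran from 1 to 23 (3 without DLBCL1, 22 without DLBCL3, 23 without DLBCL4, 2 without Healthy2, 5 without Healthy3, 1 without Healthy4 and 6 without Healthy5). The cause of these changes was not tested. The split of 9 higher and 5 lower became 2 and 10 when scaled to the reference miRNAs, 3 and 5 with DESeq2's size factors and 2 and 4 when scaled to miR-142. With at least 981 reads of miR-342 in each library, counting error was small beside the spread between dogs, and the number of dogs limits the precision.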
